A study of Mus musculus with 22 samples.

Results

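The 30 genes described here are expressed by lymphocytes: 13 genes of T cells, 6 of natural killer (NK) and cytotoxic cells, 7 of B cells and 4 of antibody production. They were chosen by name, with earlier results of these data known, and all 30 were found among the 53342 genes of the deposited counts. RNA had been sequenced from whole pancreatic tumors and from cancer cell lines of mice. The 8 KO tumors and 5 KO lines carried the miR21 KO genotype, and the 4 WT tumors and 5 WT lines were WT for it. All came from the Bl6 mouse line and were untreated, and 5 animals gave both a tumor and a line. By the labels, recombined K-Ras and p53 alleles were found by genotyping in the lines, so both genotypes carried the cancer-driving alleles. The promoter that drove recombination, the ages and the sexes are not given in the sources used here, nor is whether the lymphocytes themselves lacked microRNA-21. Each line came from 1 animal and had been passaged at least 8 times, which leaves it as a sample of cancer cells with few others. Tumors were snap-frozen and measured whole, so fewer lymphocytes and less RNA per lymphocyte cannot be told apart.

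T cells recognise antigen through the T cell receptor, whose signal runs through the CD3 chains and the kinases Lck and Zap70. B cells use a membrane-bound antibody with the signalling partners Cd79a and Cd79b, and plasma cells secrete antibody in large amounts after having shut down much of the B cell programme. Pancreatic tumors are known for few infiltrating T cells and for occasional organised lymphocyte clusters, called tertiary lymphoid structures, in which B cells gather around follicular dendritic cells.

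Library totals ran from 24547650 to 31118113 counts. Levels below are in CPM, counts scaled to a common library size with a TMM factor computed within the tumors or within the lines. A gene with 0 counts could still stand at up to 0.122 CPM (3 counts, scaled without the TMM factor), by counting error only. The targeted gene, Mir21a, is too short for this library type and had 0 counts in all 22 libraries, WT included, so it checks no label. KO tumor 8 and WT tumor 2 stood apart from the rest in lymphocyte genes, and the genotype comparison is given with and without them. Genotypes were compared with edgeR's quasi-likelihood test, adjusted by Benjamini-Hochberg over all genes tested (18125 in tumors), and a gene was called at an adjusted p under 0.05. The p-values measure the spread between animals, or between lines.

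No lymphocyte gene passed the test between KO and WT tumors. Of the 30 genes, 27 passed the low-count filter (all but Gzmb, Ifng and Ncr1), and 0 were called higher or lower by edgeR, DESeq2 or limma-voom. By edgeR, 0 reached an unadjusted p under 0.05, and the smallest adjusted p was 0.571, for Igkc. The background was low as well for edgeR, which called 2 of all 18125 tested genes (0.011%), and for limma-voom, which called 4. DESeq2 called 889 of the same 18125 genes, so its background was not low. It gave no adjusted p for at least Cd3e, which it therefore could not call. The KO and WT ranges overlapped for every one of the 30 genes, where 2.06% of all tested genes did not overlap. Of the 27 tested, 20 had a positive and 7 a negative log2 fold change (KO over WT), with a median of 0.46, against a median of 0.01 and 51.0% positive over all genes. The standard errors of the 27 fold changes ran from 0.63 (Klrb1c) to 1.98 (Fcer2a) on the log2 scale, against a median of 0.29 over all genes, so differences of several fold would not have been detectable for most of them.

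**Figure D1:**
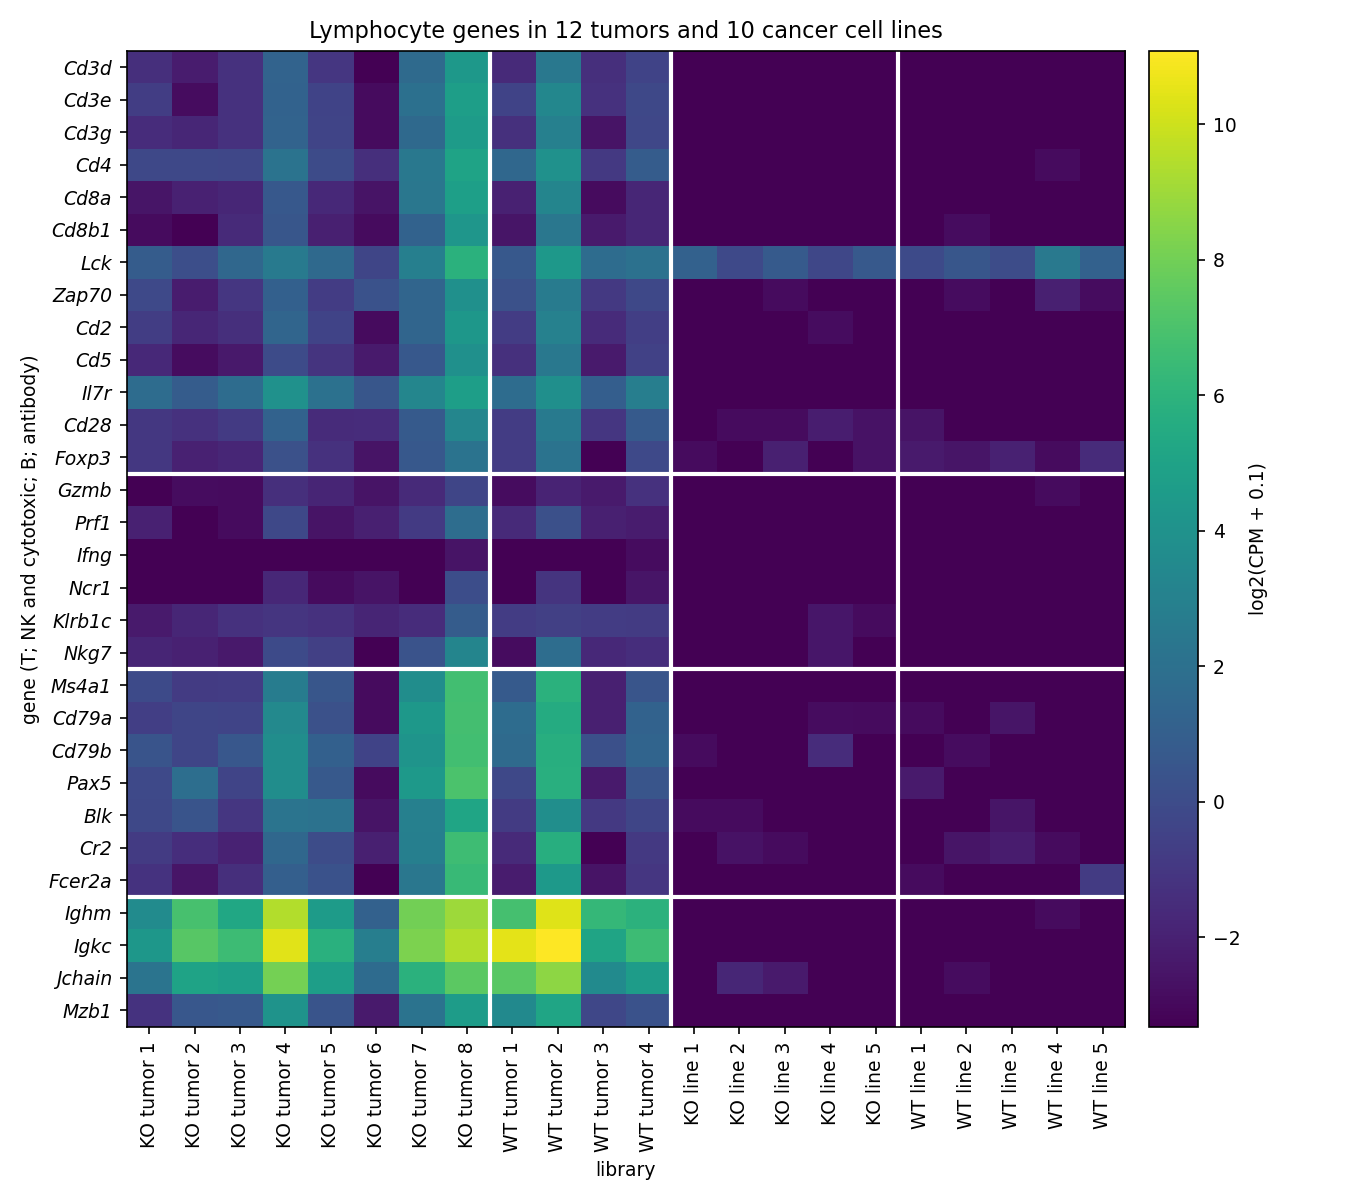
Level of each lymphocyte gene, as log2(CPM + 0.1), in each library (columns: KO tumors, WT tumors, KO lines, WT lines, separated by white lines; rows grouped by role). KO tumor 8 and WT tumor 2 are the brightest columns for T and B cell genes, KO tumors 4 and 7 are intermediate, antibody genes are bright in more tumors, and the lines are dark except for Lck.

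Levels differed widely between tumors of the same genotype. KO tumor 8 and WT tumor 2 were the 2 highest tumors for 24 of the 30 genes, and KO tumor 8 was the highest of all for 25 and WT tumor 2 for the other 5. Together they held 83.1% of the B cell CPM summed over the 12 tumors, 70.7% of the T cell CPM, 67.2% of the NK and cytotoxic CPM and 48.4% of the antibody CPM. Summed over the 7 B cell genes, the KO tumors had a lowest value of 0.97 CPM, a median of 9.62 and a highest of 663.5 (KO tumor 8), against 9.55, 300.1, 1.91 and 8.68 CPM in WT tumors 1 to 4. Summed over the 13 T cell genes, the KO tumors had a lowest value of 4.13 CPM, a median of 10.8 and a highest of 298, against 11.9, 117, 7.53 and 19.7 CPM in WT tumors 1 to 4. KO tumors 4 and 7 were intermediate, at 53.3 and 93.8 CPM for the B cell genes and 44.4 and 49.3 CPM for the T cell genes, and the other tumors of both genotypes were low.

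Lymphocyte genes were near 0 in the lines. In all 10 lines, 12 of the 30 genes had 0 counts, and 29 stayed under 1 CPM in every line. The exception was Lck, which is described with the T cell genes. In the 5 animals with both samples, the 30 genes summed to 327 CPM in KO tumor 2 and 2.19 in its line, 176 in KO tumor 3 and 1.73 in its line, 1780.0 in WT tumor 1 and 1.18 in its line, 4377 in WT tumor 2 and 1.64 in its line, and 133 in WT tumor 3 and 5.84 in its line. The line of the animal that gave lymphocyte-rich WT tumor 2 thus held no more of these transcripts than other lines.

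The chains of the T cell receptor complex came first among the T cell genes. Cd3e, which encodes the epsilon chain of CD3, had a lowest value of 0.0359 CPM, a median of 0.571 and a highest of 26.7 in KO tumors, against 0.652, 10.2, 0.318 and 0.771 CPM in WT tumors 1 to 4. KO tumor 8 and WT tumor 2 lay far above the others, and the next highest was KO tumor 7 at 3.83 CPM. The log2 fold change was 0.52 ± 1.52 (SE), with an edgeR adjusted p of 0.896. Cd3d and Cd3g, which encode the delta and gamma chains, showed the same order at the top, with 20.6 and 23.8 CPM in KO tumor 8 and 5.44 and 7.50 CPM in WT tumor 2. The 3 genes lie together on chromosome 9 (mm10, 44969572 to 45009627), with Cd3d and Cd3g 1354 bases apart on opposite strands. The labels name a stranded kit, but the strand setting of the counting is not given in the sources used here.

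The co-receptors that mark helper and cytotoxic T cells followed Cd3e. Cd4, the helper co-receptor, ran from 0.288 to 32.9 CPM in KO tumors with a median of 0.827, and stood at 2.72, 15.7, 0.424 and 1.70 CPM in WT tumors 1 to 4. Cd8a, the alpha chain of the cytotoxic co-receptor, ran from 0.0719 to 27.7 CPM in KO tumors with a median of 0.202, and stood at 0.153, 9.14, 0.0353 and 0.193 CPM in WT tumors 1 to 4. Its beta chain gene Cd8b1, which lies 35932 bases away on chromosome 6, reached 18.6 CPM in KO tumor 8 and 5.06 CPM in WT tumor 2 and was at most 2.17 CPM elsewhere. The log2 fold changes were 0.17 ± 1.26 for Cd4, 0.88 ± 1.76 for Cd8a and 1.05 ± 1.76 for Cd8b1 (SE), with edgeR adjusted p of 0.962, 0.842 and 0.804.

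The balance of Cd8a to Cd4 differed between tumors. The ratio of Cd8a counts to Cd4 counts was 0.958 in KO tumor 7 (95% exact interval 0.766 to 1.20), 0.843 in KO tumor 8 (0.766 to 0.928) and 0.581 in WT tumor 2 (0.497 to 0.678). In KO tumor 4 it was 0.330 (0.221 to 0.483), and in WT tumor 1 it was 0.0563 (0.0149 to 0.151). These intervals cover counting error only, and the ratio is one of counts, not of cells, since Cd4 is also made by some macrophages. Most other tumors had too few Cd8a counts for a narrow interval, as in WT tumor 4 at 0.114 (0.0352 to 0.286).

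The kinases downstream of the receptor had the same 2 tumors on top. Lck, the kinase that starts receptor signalling, had a lowest value of 0.719 CPM, a median of 2.81 and a highest of 58.0 in KO tumors, against 1.46, 20.3, 3.29 and 4.13 CPM in WT tumors 1 to 4. Zap70, the kinase that binds the phosphorylated CD3 chains, reached 14.9 CPM in KO tumor 8 and 6.21 CPM in WT tumor 2 and was between 0.116 and 2.46 CPM in the other tumors. Lck was the 1 gene of the 30 with a level in every line, between 0.752 and 5.52 CPM, and the highest was WT line 4. The lines had 0 counts of Cd3d, Cd3e and Cd3g. The tumor of the same animal as WT line 4, WT tumor 3, had 3.29 CPM of Lck beside 0.318 CPM of Cd3e, so Lck counts here do not mark T cells alone. Between KO and WT lines, Lck had a log2 fold change of -0.65 ± 0.56 (SE) and an edgeR adjusted p of 0.795, where 0.0143% of the 14020 genes tested in lines were called.

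Surface molecules of T cells followed the pattern to different degrees. Cd2, an adhesion receptor, and Cd5, which dampens receptor signalling, stood at 19.4 and 15.2 CPM in KO tumor 8 and at 8.10 and 5.27 CPM in WT tumor 2, and did not exceed 2.55 and 1.49 CPM in other tumors. Cd28, the main costimulatory receptor, stood at 9.58 CPM in KO tumor 8 and 5.72 CPM in WT tumor 2. Il7r, the receptor chain for the survival cytokine interleukin-7, was spread more evenly: it ran from 1.33 to 26.5 CPM in KO tumors with a median of 3.75, and stood at 3.34, 14.1, 1.84 and 7.06 CPM in WT tumors. For Il7r alone among the T cell genes, the second highest tumor was KO tumor 4 (15.6 CPM) and not WT tumor 2. In KO tumor 8 it was 7.83 times the median of the other KO tumors, against 143.5 times for Cd8a, whose median there was only 0.193 CPM.

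Foxp3, the transcription factor of regulatory T cells, was the T cell gene with the most negative fold change. It ran from 0.0719 to 4.31 CPM in KO tumors with a median of 0.358, and stood at 0.499, 4.36, 0 and 0.810 CPM in WT tumors 1 to 4. The groups overlapped throughout, and the log2 fold change was -0.51 ± 1.14 (SE), with an edgeR adjusted p of 0.861. KO tumor 8 and WT tumor 2 were nearly equal in Foxp3 although KO tumor 8 had more Cd3e: the ratio of Foxp3 to Cd3e counts was 0.161 (95% exact interval 0.132 to 0.196) in KO tumor 8 and 0.428 (0.344 to 0.530) in WT tumor 2. In KO tumor 7 the ratio was 0.381 (0.264 to 0.542) and in KO tumor 4 it was 0.491 (0.298 to 0.792). Foxp3 counts are uncertain, because the gene overlaps Ccdc22 and Ppp1r3f on the opposite strand, whose counts summed over the tumors to 267.5% and 170.9% of its own, and 8 of the 10 lines also had Foxp3 counts. Foxp3 also overlaps Flicr on the same strand, whose counts summed to 23.4% of its own. Leaving out KO tumor 8 and WT tumor 2 turned its fold change to 0.27.

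**Figure D2:**
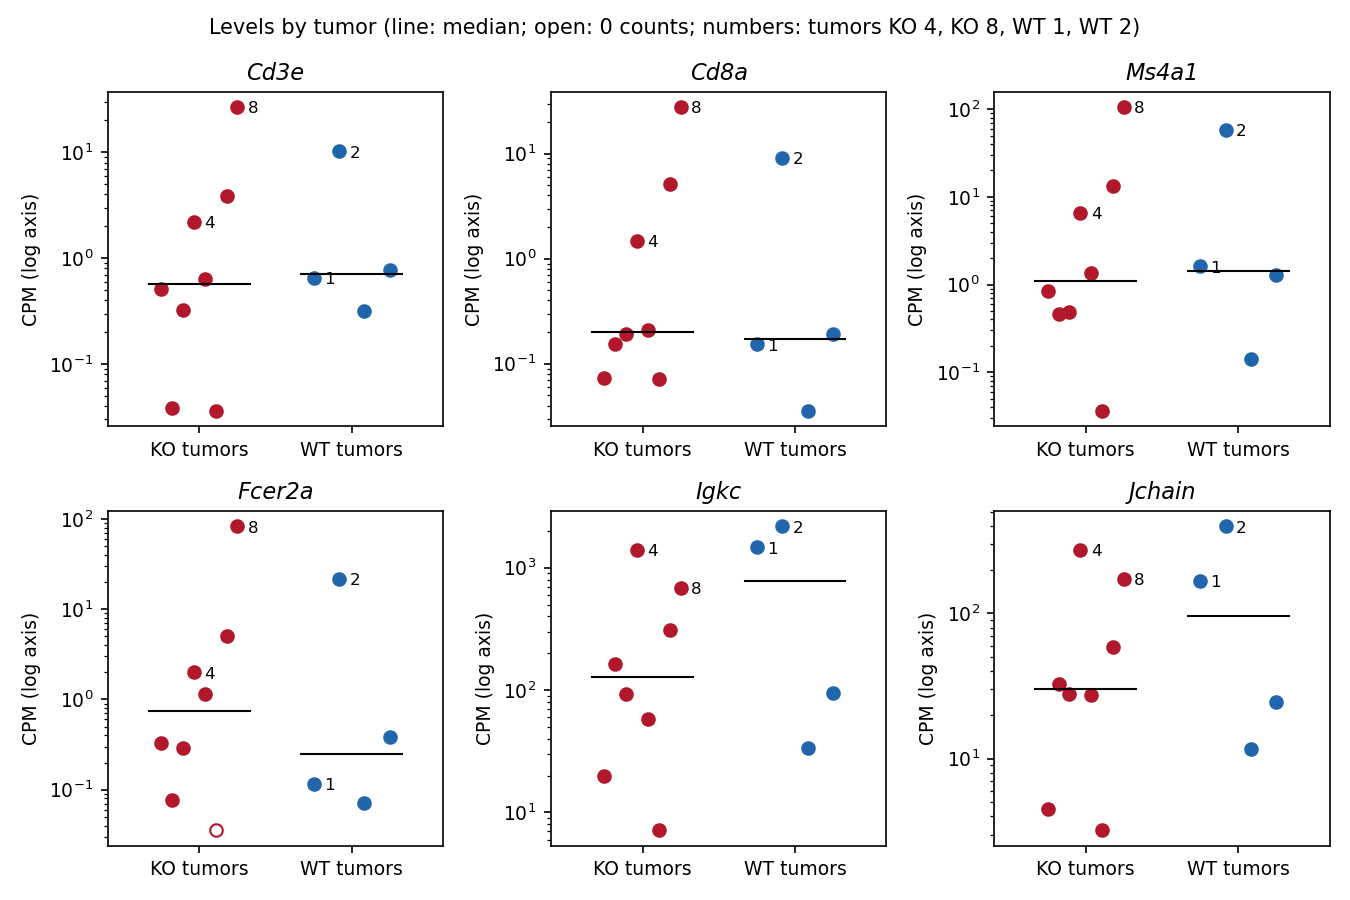
CPM on log axes of Cd3e, Cd8a, Ms4a1, Fcer2a, Igkc and Jchain in each KO tumor (left, red) and each WT tumor (right, blue), with the group median as a line and open points for 0 counts. KO tumor 8 and WT tumor 2 are the highest of their groups for the 4 T and B cell genes, while for Igkc KO tumor 4 (1399 CPM) and WT tumor 1 (1466 CPM) join the top.

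Of the NK and cytotoxic genes, Ifng, Ncr1 and Gzmb were scarce in every tumor. Ifng, the gene of interferon gamma, had 3 counts over all 12 tumors and 0 counts in 10 of them. Ncr1, which encodes the NK receptor NKp46, had 0 counts in 6 tumors and reached 0.955 CPM in KO tumor 8 and 0.349 CPM in WT tumor 2. Gzmb, the protease granzyme B, ran from 0 to 0.707 CPM in KO tumors with a median of 0.124, and stood at 0.0384, 0.175, 0.106 and 0.308 CPM in WT tumors. Most of these values are near the floor that 3 counts set, so no difference was detectable at this depth.

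Prf1, the pore-forming perforin, stood at 3.39 CPM in KO tumor 8 and at 1.05 CPM in WT tumor 2, and was at most 0.757 CPM elsewhere. Nkg7, a protein of cytotoxic granules in NK cells and Cd8 T cells, reached 9.19 CPM in KO tumor 8 and 3.42 CPM in WT tumor 2. Klrb1c, the NK receptor NK1.1, was the most even of the 30 genes among WT tumors. It ran from 0.109 to 1.70 CPM in KO tumors with a median of 0.288, and stood at 0.499, 0.558, 0.495 and 0.463 CPM in WT tumors 1 to 4. All KO tumors except KO tumor 8 lay below the WT tumors. The log2 fold change was -0.23 ± 0.63 (SE), with an edgeR adjusted p of 0.891, and without KO tumor 8 it was -1.01, with an adjusted p of 0.234. Of the NK group, Ncr1 and Klrb1c are receptors of NK cells, while the other genes are shared with cytotoxic T cells.

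B cell genes had the widest spread of the 4 groups. Ms4a1, the B cell surface antigen CD20, had a lowest value of 0.0359 CPM, a median of 1.09 and a highest of 105.3 in KO tumors, against 1.61, 57.9, 0.141 and 1.27 CPM in WT tumors 1 to 4. Cd79a, a signalling chain of the B cell receptor, had a lowest value of 0.0359 CPM, a median of 0.893 and a highest of 109.9 in KO tumors, against 3.26, 46.9, 0.141 and 2.24 CPM in WT tumors. For Cd79a the KO mean was higher than the WT mean (18.0 ± 37.8 CPM in KO tumors, SD, n = 8, and 13.1 ± 22.6 CPM in WT tumors, SD, n = 4), while the KO median was lower than the WT median of 2.75 CPM. The log2 fold change, which follows the means, was 0.45 ± 1.70 (SE), with an edgeR adjusted p of 0.921. For Ms4a1 it was 0.07 ± 1.73, with an adjusted p of 0.989.

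The partner chain Cd79b, the B cell master regulator Pax5 and the B cell kinase Blk had the same tumors at the top. They stood at 107, 126 and 34.8 CPM in KO tumor 8 and at 51.4, 55.2 and 13.6 CPM in WT tumor 2. Elsewhere their highest values were all in KO tumor 7, at 17.7, 22.2 and 7.65 CPM. In lower tumors the 3 genes differed. KO tumor 2 had 3.56 CPM of Pax5 beside 0.697 CPM of Cd79b, and KO tumor 5 had 4.22 CPM of Blk beside 1.51 CPM of Pax5. The B cell genes of KO tumor 6 were nearly absent except for Cd79b, with 1 count each of Ms4a1 and Cd79a and 18 counts of Cd79b.

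Cr2 and Fcer2a had the widest gap between the 2 high tumors and the others. Cr2 encodes complement receptor 2 (CD21), and Fcer2a the low-affinity IgE receptor CD23. Mature B cells carry both, and follicular dendritic cells carry them too. Cr2 had a lowest value of 0.144 CPM, a median of 0.694 and a highest of 97.7 in KO tumors, against 0.230, 53.2, 0 and 0.424 CPM in WT tumors 1 to 4. Fcer2a had a lowest value of 0 CPM, a median of 0.744 and a highest of 82.5 in KO tumors, against 0.115, 21.8, 0.0707 and 0.386 CPM in WT tumors. Relative to the median of the other tumors of the same genotype, Cr2 was 206.6 times higher in KO tumor 8 and 231 times higher in WT tumor 2, and Fcer2a was 252 times higher in KO tumor 8 and 189 times higher in WT tumor 2. For Cd79a these ratios were 158 in KO tumor 8 and 21 in WT tumor 2. The medians of the other WT tumors were 0.230 CPM for Cr2 and 0.115 CPM for Fcer2a, near the floor of 0.122 CPM. Those of the other KO tumors were 0.473 and 0.327 CPM. The size of the Cr2 and Fcer2a ratios therefore rests on few counts and is imprecise. The ratio of Cr2 to Cd79a counts was 0.890 in KO tumor 8 (95% exact interval 0.845 to 0.937) and 1.13 in WT tumor 2 (1.05 to 1.22), against 0.353 (0.302 to 0.412) in KO tumor 7 and 0.250 (0.188 to 0.328) in KO tumor 4, which had the next most B cell counts. The ratio was not particular to the 2 high tumors: KO tumor 1 had 0.867 (0.380 to 1.95) and KO tumor 5 had 0.839 (0.478 to 1.46), on few counts.

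Most of a list of 8 genes of lymphoid tissue, made by its stroma and vessels or, for Ltb and Lta, by lymphocytes themselves, were also high in these 2 tumors, and their part in the result was not tested. The list summed to 22.2 to 459 CPM in KO tumors with a median of 80.9, and to 29.6, 218, 34.0 and 55.2 CPM in WT tumors 1 to 4. KO tumor 8 was the highest tumor for 7 of the 8 genes, and KO tumor 8 and WT tumor 2 were the top 2 for 5. Tnfrsf11b was the exception, with its highest level, 47.5 CPM, in KO tumor 2. All 8 had a positive fold change, with a median of 0.40, and 0 were called. The smallest p belonged to Ccl21a (1.55 ± 1.21), Madcam1 (1.21 ± 1.07), Ltb (0.83 ± 1.16) and Lta (0.54 ± 1.14, SE, log2). Glycam1, a mucin of the high endothelial venules through which lymphocytes enter lymph nodes, was named after its values were seen. It stood at 63.4 CPM in KO tumor 8 and 29.6 CPM in WT tumor 2, and at no more than 2.98 CPM in the other tumors. Ccl21a, the chemokine that draws T cells into lymphoid tissue, stood at 128 CPM in KO tumor 8 and 38.3 CPM in WT tumor 2, and KO tumor 4 exceeded WT tumor 2 with 58.7 CPM. Cxcl13, the chemokine of B cell follicles, also named after its values were seen, was as high in KO tumor 4 (100.0 CPM) as in KO tumor 8 (105.4 CPM) and stood at 83.6 CPM in WT tumor 2. The counts do not tell lymphoid structures within a tumor from adjoining lymph node tissue.

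MicroRNA-21 acts through sites that pair with its seed, and 2 of the 30 genes carry such a site. The mature sequence, from RefSeq (GRCm38.p6, chr11:86584120-86584141, minus strand), is shown with its seed, bases 2 to 8, in capitals. The site sought was the 7 bases ATAAGCT, the reverse complement of the seed, on the transcript strand of the longest 3′ UTR in GENCODE vM21 (mm10), where it is in capitals below. The Cr2 site lies at chr1:195137400-195137406 and the Ms4a1 site at chr19:11250696-11250702, both on the minus strand, and both are followed by A, which makes them 8mer sites.
mmu-miR-21a-5p: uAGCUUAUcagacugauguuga
Cr2 site: tggtgagtcacATAAGCTatgggggaaaa
Ms4a1 site: catatgcctgtATAAGCTatatcaaagta
Such a site was present in 6.67% of the lymphocyte genes and in 7.52% of the 21038 genes with a 3′ UTR of at least 20 bases. The fold changes of the 2 genes with a site were 0.02 ± 1.92 for Cr2 and 0.07 ± 1.73 for Ms4a1 (SE, log2), and both turned with single tumors: without KO tumor 8 they were -2.99 for Cr2 and -2.21 for Ms4a1, and without WT tumor 2 they were 5.96 for Cr2 and 3.99 for Ms4a1. A match of letters is not evidence that the site is used.

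The antibody genes Igkc, Ighm and Jchain were on average the most abundant of the 30 and followed another order of tumors. Averaged over the 12 tumors, Igkc stood at 1018 CPM per kilobase of exon, Ighm at 143 and Jchain at 39.9, against 11.2 for Cd79a, 2.55 for Ms4a1 and 0.944 for Cd3e. This order of averages did not hold in every tumor: in KO tumor 8, Jchain lay below Cd79a and Cd79b per kilobase. Igkc, the constant region of kappa light chains, had a lowest value of 7.12 CPM, a median of 128 and a highest of 1399 (KO tumor 4) in KO tumors, against 1466, 2176, 33.7 and 95.5 CPM in WT tumors 1 to 4. WT tumors 1 and 2 and KO tumor 4 were the highest, and the groups overlapped. The log2 fold change was -1.47 ± 1.22 (SE), with an edgeR adjusted p of 0.571.

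Ighm, the constant region of IgM, ran from 2.16 to 684.4 CPM in KO tumors with a median of 77.9, and stood at 113, 1346, 76.2 and 60.5 CPM in WT tumors 1 to 4. Jchain, the chain that joins antibody units in IgM and IgA, ran from 3.20 to 274 CPM in KO tumors with a median of 30.3, and stood at 168, 398, 11.6 and 24.5 CPM in WT tumors. Mzb1, a chaperone of the endoplasmic reticulum in antibody-secreting cells, ran from 0.108 to 24.8 CPM in KO tumors with a median of 1.45, and stood at 11.3, 35.5, 0.742 and 1.12 CPM in WT tumors. The fold changes of all 4 antibody genes were negative, between -1.47 and -0.95 (log2), and none passed the test. Without WT tumor 2 the fold changes of Ighm, Jchain and Mzb1 were 1.30, 0.14 and 0.52, and without KO tumor 8 and WT tumor 2 that of Ighm was 0.96.

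**Figure D3:**
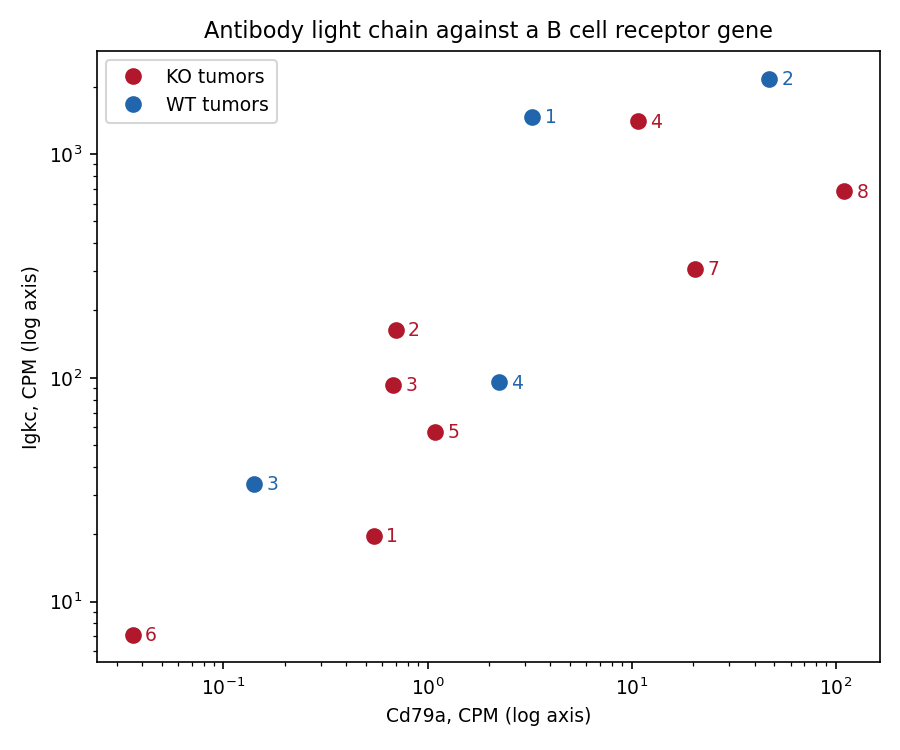
Igkc against Cd79a, in CPM on log axes, with 1 numbered point for each KO tumor (red) and WT tumor (blue). The points follow a rising band, with WT tumor 1 (1466 CPM of Igkc, 3.26 of Cd79a) far above and KO tumor 8 (682 and 109.9 CPM) below it.

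The amount of antibody transcript for a given amount of B cell transcript differed widely between tumors. The ratio of Igkc to Cd79a counts was 6.21 in KO tumor 8 (95% exact interval 5.98 to 6.45) and 15.0 in KO tumor 7 (13.8 to 16.3). It was 131 in KO tumor 4 (116 to 148), 449.6 in WT tumor 1 (363.5 to 563) and 46.4 in WT tumor 2 (43.9 to 49.0). The 2 tumors richest in B cell genes therefore differed in this ratio, and WT tumor 1 combined the second highest Igkc level of the 12 tumors with B cell genes that summed to 9.55 CPM. The ratio of the 4 antibody genes to the 7 B cell genes gave the same ends: 2.09 in KO tumor 8 (2.05 to 2.13) and 184 in WT tumor 1 (162.5 to 209). The intervals cover counting error only.

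Heavy chain classes also set the tumors apart. As shares of the heavy chain constant region counts in a tumor, Ighm ran from 14.6% to 38.8% in KO tumors with a median of 24.8%, and was 5.18%, 35.8%, 84.0% and 33.8% in WT tumors 1 to 4. The IgG genes together ran from 7.77% to 52.7% in KO tumors with a median of 35.8%, and WT tumors lay between 6.39% (WT tumor 3) and 73.7% (WT tumor 1, 95% Wilson interval 73.4 to 74.1). Igha, the class of mucosal antibody, gave most heavy chain counts in KO tumor 5 (63.3%) and in KO tumor 6, where it was 76.5% of 412 counts (72.1 to 80.3). In KO tumors its median share was 30.6%, and in WT tumors the highest share was 34.0%. Ighd, which naive B cells carry with Ighm, was 13.5% of heavy chain counts in KO tumor 8 and 7.19% in KO tumor 7, against 1.91% in WT tumor 2 and 0.0652% in WT tumor 1. The classes that led in WT tumor 1 were Ighg2c (28.1%) and Igha (20.9%). The IgG genes resemble one another in sequence, so their counts may be split imprecisely.

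**Figure D4:**
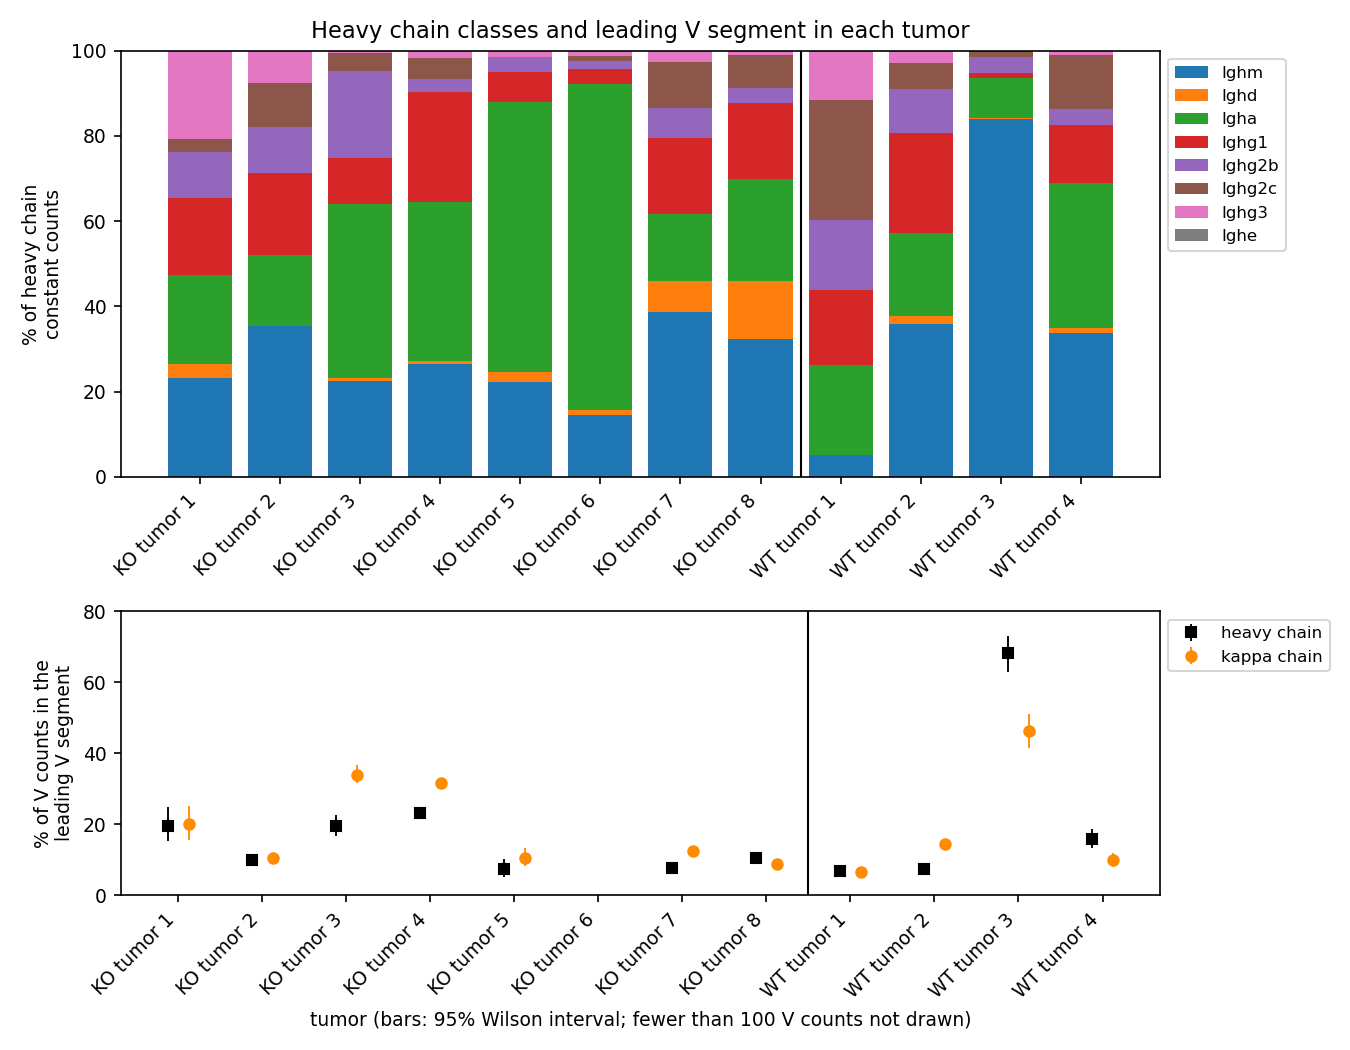
Upper panel: heavy chain constant region genes as % of their summed counts in each KO tumor (left of the line) and WT tumor (right). Lower panel: % of V segment counts in the leading V segment, with 95% Wilson intervals, for heavy chains (squares) and kappa chains (circles). WT tumor 3 stands out in both, with 84.0% Ighm and 68.2% of heavy V counts in 1 segment, and KO tumor 6 has too few V counts to be drawn.

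WT tumor 3 was unlike the other tumors in the makeup of its antibody transcripts. Ighm was 84.0% of its 2566 heavy chain counts (95% Wilson interval 82.6 to 85.4), where the next highest tumor had 38.8%. Lambda light chains made up 50% of its light chain constant counts (47.8 to 52.2), against 3.95% to 29.2% in KO tumors and 2.34% to 9.13% in the other WT tumors. The single gene Iglc2 gave 43.9% of its light chain counts, against at most 7.37% in any other tumor. Its total antibody level was low, with 33.7 CPM of Igkc and 76.2 CPM of Ighm.

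Heavy and kappa V segments, the variable parts that each B cell clone combines anew, were dominated by few segments in WT tumor 3 and more evenly spread in the other tumors with at least 100 V counts. For lambda chains the leading segment differed, not the degree of dominance. In WT tumor 3, Ighv5-9-1 gave 221 of 324 heavy V counts, or 68.2% (63.0 to 73.0). The effective number of heavy V segments (the inverse of the summed squared shares) was 2.08 there, against 9.95 to 35.2 in the 7 KO tumors with at least 100 V counts and a highest value of 37.7 in WT tumor 2. Iglv2 gave 319 of 381 lambda V counts in WT tumor 3, or 83.7% (79.7 to 87.1), while Iglv1 led in all of the other 8 tumors with at least 100 lambda V counts, with 70.7% to 97.2% in KO tumors and up to 98.1% in WT tumors. By level, Ighv5-9-1 was at 7.81 CPM in WT tumor 3, below the 9.52 CPM of KO tumor 4, which had many more antibody counts. The leading kappa segment of WT tumor 3, Igkv5-48, gave 46.2% of its kappa V counts (41.4 to 51.0), and the related Igkv5-39 a further 22.1%. The effective number of kappa V segments was 3.75 there. A strong kappa leader was not particular to WT tumor 3: in KO tumor 3, Igkv14-111 gave 34% of 1246 kappa V counts, with an effective number of 7.36.

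KO tumor 4 had the highest count of a single V segment in both chains. Ighv1-22 gave 2886 of its 12496 heavy V counts, or 23.1% (22.4 to 23.8), and stood at 115 CPM there, against at most 2.65 CPM in every other tumor except WT tumor 2 (7.82 CPM). Igkv3-2 gave 5970 of its 18861 kappa V counts, or 31.7% (31.0 to 32.3), at 238 CPM, and was the leading kappa segment of WT tumors 1 and 2 as well, at 37.4 and 98.8 CPM. WT tumor 1, with the most antibody for its B cell transcripts, had no dominant segment: its leading heavy V segment gave 6.86% and its effective number was 34.4. V segments share long stretches of sequence and are mutated in B cells, so these counts assign reads to segments only approximately and do not identify clones.

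The last 75 bases of the annotated V exon of 4 leading segments are shown, the heavy and lambda leaders of WT tumor 3 and the heavy and kappa leaders of KO tumor 4, because they run into the junction with the next segment, where clones differ. They come from GENCODE vM21 transcripts (mm10), and the capitals mark the codon of the conserved cysteine before that junction. Ighv5-9-1 lies at chr12:113736111-113736185 and Ighv1-22 at chr12:114746273-114746347, both on the minus strand. Iglv2 lies at chr16:19260401-19260475 on the minus strand and Igkv3-2 at chr6:70698993-70699067 on the plus strand.
Ighv5-9-1: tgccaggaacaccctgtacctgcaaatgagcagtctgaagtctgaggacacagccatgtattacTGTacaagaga
Iglv2: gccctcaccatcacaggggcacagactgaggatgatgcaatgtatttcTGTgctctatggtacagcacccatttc
Ighv1-22: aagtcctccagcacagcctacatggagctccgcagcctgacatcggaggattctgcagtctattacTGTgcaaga
Igkv3-2: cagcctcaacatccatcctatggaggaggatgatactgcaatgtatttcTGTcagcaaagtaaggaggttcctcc
T cell receptor beta V segments had at least 100 counts in KO tumor 8 (481) and WT tumor 2 (156) alone. Their effective numbers were 13.6 in KO tumor 8 and 12.3 in WT tumor 2, and the leading segments gave 12.5% (Trbv13-2) in KO tumor 8 and 14.7% (Trbv16) in WT tumor 2.

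T and B cell genes varied together across the tumors. On log2(CPM + 0.1) over 12 tumors, Cd3e and Cd79a had a Pearson r of 0.947 and a Spearman rho of 0.944 (adjusted p of 4e-05 each, permutation test, adjusted over 6 gene pairs). Without KO tumor 8 and WT tumor 2, the 2 tumors farthest from the median, r was 0.883 (adjusted p of 0.0028), and among the 8 KO tumors it was 0.956 (adjusted p of 0.0016, exact permutation test). Cd3e was related in the same way to Cd4 (r of 0.955, rho of 0.951) and Cd8a (r of 0.934, rho of 0.846), and Cd79a to Ms4a1 (r of 0.987, rho of 0.965), with adjusted permutation p of at most 0.0011 for each value. Cd79a and Jchain were less tightly related (r of 0.849, rho of 0.881, adjusted permutation p of 0.00079 and 0.00063), and r was 0.808 without the same 2 tumors. Cd3e and Ncr1 had an r of 0.776 and a rho of 0.586 (adjusted permutation p of 0.0083 and 0.05), but r was 0.234 without KO tumor 8 and WT tumor 2 (adjusted permutation p of 0.51), so that relation rests on these 2 tumors. The 4 WT tumors are too few for a value of their own.

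**Figure D5:**
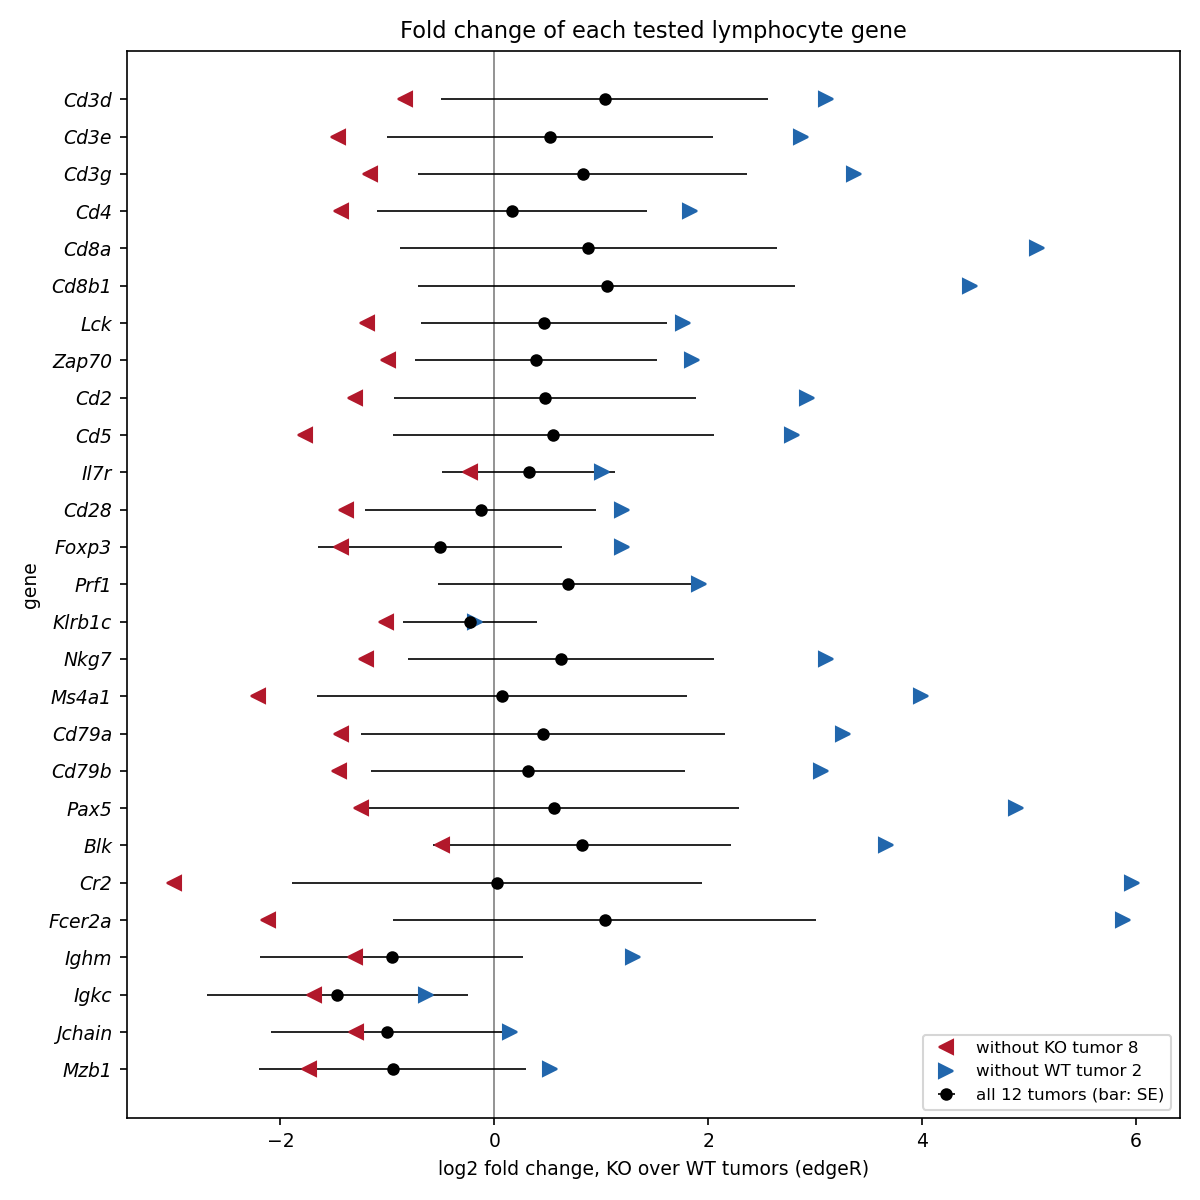
Log2 fold change (KO over WT tumors, edgeR) of the 27 tested lymphocyte genes with all 12 tumors (black, bars are SE), without KO tumor 8 (red, left-pointing) and without WT tumor 2 (blue, right-pointing). All 24 genes tested without KO tumor 8 lie below 0, and 25 of 27 lie above 0 without WT tumor 2.

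The sign of the genotype comparison depended most on these 2 libraries. Without KO tumor 8, 24 of the genes could be tested (Cd8a, Cd8b1 and Prf1 could not). All 24 had a negative fold change, with a median of -1.35 (log2). Without WT tumor 2, 25 of 27 were positive, with a median of 2.87. The other WT tumors mattered less but also moved the result. Leaving out WT tumor 1, 3 or 4 alone gave 16 positive and 11 negative, with medians of 0.12, 0.03 and 0.13. Without both, 19 were positive and 5 negative of 24 tested, with a median of 0.93, and the 7 B cell genes were all positive, between 1.28 and 3.08. In that comparison KO tumors 4 and 7 were the highest for B cell genes, while the median of the remaining KO tumors was below that of the remaining WT tumors for Cd79a (0.697 CPM in KO tumors, 2.24 CPM in WT tumors) and for Ms4a1 (0.837 CPM in KO tumors, 1.27 CPM in WT tumors). The tool mattered as well: with all 12 tumors DESeq2 gave 4 positive and 23 negative fold changes (median -1.18), and limma-voom 9 positive and 18 negative (median -0.25). The 4 antibody genes were negative with all 3 tools. No lymphocyte gene passed the test in any of these comparisons, although DESeq2 gave no adjusted p for at least Cd3e.

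Further genes of the same cell types gave a similar picture. They came from lists drawn up with earlier results of these data known, so they are not independent support. Of 24 other T cell genes, 22 were tested, 0 were called, and 18 had a positive and 4 a negative fold change, with a median of 0.40. The 4 with the smallest p were Thy1 (log2 fold change 1.16 ± 0.29, SE, adjusted p of 0.139), Bcl11b (-0.67 ± 0.44), Tcf7 (-0.50 ± 0.36) and Lef1 (1.23 ± 1.02). Thy1 is also made by fibroblasts. It ran from 57.5 to 217 CPM in KO tumors with a median of 135, against 50.6, 78.0, 64.7 and 48.7 CPM in WT tumors, and only KO tumor 2 lay within the WT range. The transcription factor genes Bcl11b and Tcf7 reached 12.2 and 26.2 CPM in the lines, so they do not mark T cells alone here.

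Of 15 other NK and cytotoxic genes, 7 were tested and 0 called, with a median of -0.01, and the smallest p belonged to Eomes (-1.42 ± 0.58, adjusted p of 0.248), which reached 8.85 CPM in the lines. The next were Ctsw (-0.83 ± 0.75), Klrd1 (0.99 ± 1.11) and Il2rb (0.28 ± 1.16). All 18 other B cell genes were tested and 0 called. Of them 16 were positive, with a median of 0.37, and KO tumor 8 and WT tumor 2 were the 2 highest tumors for all 18. The smallest p belonged to Fcmr (0.85 ± 1.43), Ighd (0.92 ± 1.76), Cd37 (0.53 ± 1.09) and Pou2af1 (-0.52 ± 1.25). Of 14 other antibody genes, 13 were tested and 0 called, with 2 positive and 11 negative fold changes and a median of -1.01. The smallest p belonged to Prdm1 (-1.17 ± 0.32, adjusted p of 0.147), Ighg2b (-2.52 ± 1.19, adjusted p of 0.310), Ighg3 (-2.69 ± 1.36, adjusted p of 0.342) and Derl3 (-1.01 ± 0.66). Prdm1, the transcription factor of plasma cells that other cells also make, ran from 4.44 to 11.3 CPM in KO tumors with a median of 6.94, against 27.7, 10.6, 16.8 and 10.3 CPM in WT tumors.

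Markers of other cell types differed in direction between the genotypes, and their part in the lymphocyte values was not tested. None of these lists held a called gene. All 7 epithelial genes had a negative fold change (median -0.62), and they summed to a median of 6213 CPM in KO tumors and of 11583 CPM in WT tumors. All 7 fibroblast genes (median 1.36), all 10 tested acinar genes (1.95) and all 10 macrophage genes (0.25) had a positive one. The medians were 0.07 for 5 tested neutrophil genes, 0.27 for 6 endothelial genes and 0.80 for 5 erythroid genes. Summed acinar genes, which mark normal exocrine pancreas, stood at 1252 CPM in KO tumor 8, 2827 CPM in KO tumor 4 and 72.4 CPM in WT tumor 2. Their medians were 407.6 CPM in KO tumors and 49.1 CPM in WT tumors, so both tumors rich in lymphocyte genes lay above the median of their genotype.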

How the data were processed

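Per the labels, RNA of snap-frozen tumors and of lines was extracted with TRIzol, and stranded mRNA libraries gave single-end reads of 75 bases. The submitters' processing notes name bcl2fastq (1.9.0), Trim Galore, STAR and the build mm10. The authors deposited raw counts of reads for each gene. The counter, its strand setting and its annotation are not given in the sources used here. If reads were counted without strand, overlapping genes share reads, and reads that map to several antibody segments may be lost or split. Of the 53342 gene IDs, 53237 matched a symbol, and the other 105 held 0.00944% of counts. Groups came from the genotype label, and replicate numbers follow accession order.

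Tumors and lines were fitted apart with edgeR 4.0.16 in R 4.3.3 (default low-count filter by genotype, TMM factors, robust quasi-likelihood tests, Benjamini-Hochberg adjustment). Among 54 pairs of libraries of the same group none were identical, and their chi-square was at least 31.2 times its degrees of freedom. Tested on simulated data with 18125 genes, the tumor comparison found 0% of the genes altered by 0.5 on the log2 scale, 14% of those altered by 1, 60% by 2 and 90% by 3, with 1 false call of 83. With 14020 genes, the line comparison found 2%, 34%, 82% and 86%, with 2 false calls of 104. The altered genes were drawn at random from all tested genes, whose median standard error in the real tumors was 0.29. The lymphocyte genes had standard errors from 0.63 to 1.98 in tumors, so these recovery shares do not apply to them.

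Correlations used log2(CPM + 0.1) with two-sided permutation tests (100000 resamples, or every pairing for 8 tumors). Intervals of ratios are exact (Clopper-Pearson), and those of shares are Wilson intervals, both at 95% and for counting error only. Positions come from GENCODE vM21. The 30 genes and all lists were chosen with earlier results of these data known. All 30 genes are named, with up to 4 genes by smallest p from each further list of T, NK, B, antibody and lymphoid tissue genes and V segments by their highest count in a tumor. Other genes named after their values were seen are said to be so or are further members of these lists. Alternatives were DESeq2 1.42.0, limma-voom (limma 3.58.1), scaling by RLE or upper quartile, no filter or a filter on mean CPM, all 22 libraries in 1 fit and leaving out each library.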

Additional observations from a re-analysis of the deposited data

Results flagged for a closer look

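A single tumor lay far from the rest of its group for most lymphocyte genes. The measure is the gap between the extreme library and its nearest neighbour, as a share of the group's whole range, and values past the 95% critical value for the group size are given here. Of 76 groups examined, 55 had such a gap: 30 with KO tumor 8 as the extreme library and 23 with WT tumor 2. The share was taken on CPM and not on a log scale, and a few high tumors stretch the CPM range. About 1 in 20 groups would show such a gap by chance only if the values were normally distributed, so that rate does not hold here. These groups are also not independent, because the same 2 tumors recur in genes that vary together. Some genes were chosen after their values were seen. The count is therefore a description.

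For KO tumor 8 the share among T cell genes was 0.851 for Cd3d, 0.858 for Cd3e, 0.879 for Cd3g, 0.843 for Cd4, 0.815 for Cd8a, 0.883 for Cd8b1, 0.882 for Lck, 0.841 for Zap70, 0.87 for Cd2, 0.904 for Cd5, 0.787 for Cd28 and 0.673 for Foxp3. Among NK and cytotoxic genes it was 0.606 for Gzmb, 0.777 for Prf1, 1 for Ifng, 0.791 for Ncr1, 0.843 for Klrb1c and 0.873 for Nkg7, and among B cell genes 0.873 for Ms4a1, 0.814 for Cd79a, 0.84 for Cd79b, 0.824 for Pax5, 0.782 for Blk, 0.927 for Cr2 and 0.938 for Fcer2a. For Ifng it rests on 2 counts, and no antibody gene had such a gap in the KO tumors.

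For WT tumor 2 the share among T cell genes was 0.918 for Cd3d, 0.954 for Cd3e, 0.911 for Cd3g, 0.85 for Cd4, 0.983 for Cd8a, 0.977 for Cd8b1, 0.858 for Lck, 0.881 for Zap70, 0.963 for Cd2 and 0.909 for Cd5. Among NK and cytotoxic genes it was 0.877 for Prf1 and 0.932 for Nkg7, among B cell genes 0.975 for Ms4a1, 0.933 for Cd79a, 0.959 for Cd79b, 0.979 for Pax5, 0.98 for Blk, 0.992 for Cr2 and 0.985 for Fcer2a, and it was 0.959 for Ighm.

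Some genes outside the 30 were examined as well, chosen after their values were seen. In KO tumor 8 it was 0.953 for Glycam1, 0.777 for Ighd, 0.542 for Ccl21a, 0.882 for Trbc1 and 0.862 for Trac, where Trbc1 and Trac encode T cell receptor constant regions. In WT tumor 2 it was 0.986 for Glycam1, 0.973 for Ighd and 0.917 for Ccl21a. WT line 4 had a share of 0.728 for Lck, and WT tumor 4 one of 1 for Ifng, which rests on 1 count.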

How the results depend on the processing

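No lymphocyte gene was called under any alternative, in tumors or in lines. In tumors DESeq2 gave no adjusted p for at least Cd3e, and without its replacement of outlying counts for at least Cd3d and Cd3e. Those genes could not be called there, so for them the result is missing and not negative. In tumors, edgeR called 2 genes of all those tested. DESeq2 called 889, DESeq2 without its replacement of outlying counts 874, limma-voom 4, all libraries in 1 fit 40, and edgeR without KO tumor 8 and WT tumor 2 called 8. Leaving out 1 tumor gave 2 to 82 calls (82 without KO tumor 2, 57 without WT tumor 2). In lines edgeR called 2 genes, DESeq2 46, and leaving out 1 line gave 0 to 2 calls.

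The signs of the fold changes depended on tool and tumor. DESeq2 gave 4 positive and 23 negative log2 fold changes, reversing Cd3d -0.829, Cd3e -1.44, Cd3g -1.15, Cd4 -1.4, Cd8a -1.18, Cd8b1 -1.26, Lck -1.15, Cd2 -1.29, Cd5 -1.76, Nkg7 -1.19, Ms4a1 -2.19, Cd79a -1.41, Cd79b -1.44, Pax5 -1.24, Cr2 -2.99 and Fcer2a -2.13. It replaces outlying counts in groups of at least 7, here the KO tumors, and without that step, an alternative chosen after seeing the data, it gave 20 positive and 7 negative and reversed none. limma-voom reversed Cd3d -0.3, Cd3e -0.664, Cd4 -0.426, Cd8b1 -0.0564, Lck -0.342, Zap70 -0.199, Cd2 -0.185, Cd5 -0.436, Foxp3 0.201, Prf1 -0.461, Ms4a1 -0.186, Cd79a -0.365 and Cd79b -0.251, and the cause was not tested. With no low-count filter Cr2 was -0.0143, and without KO tumor 8 and WT tumor 2, also chosen after seeing the data, Foxp3 was 0.272 and Ighm 0.961. Scaling by upper quartile or RLE, a filter on mean CPM and all libraries in 1 fit reversed none.

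Leaving out 1 tumor in turn gave these ranges of log2 fold change for the genes that reversed: Blk -0.491 to 3.66, Cd2 -1.3 to 2.92, Cd28 -1.39 to 1.19, Cd3d -0.837 to 3.1, Cd3e -1.46 to 2.87, Cd3g -1.16 to 3.36, Cd4 -1.43 to 1.83, Cd5 -1.77 to 2.78, Cd79a -1.43 to 3.26, Cd79b -1.45 to 3.05, Cr2 -2.99 to 5.96, Fcer2a -2.12 to 5.88, Foxp3 -1.43 to 1.19, Ighm -1.55 to 1.3, Il7r -0.231 to 1.01, Jchain -1.68 to 0.142, Lck -1.19 to 1.76, Ms4a1 -2.21 to 3.99, Mzb1 -1.73 to 0.521, Nkg7 -1.2 to 3.1, Pax5 -1.25 to 4.88 and Zap70 -0.993 to 1.85. Cd8a, Cd8b1 and Prf1 are not among them, but they failed the low-count filter without KO tumor 4, 7 or 8. They were fitted in 9 of the 12 settings, so whether they would reverse without KO tumor 8 is not known. For Cd3e and Ncr1, Pearson r was 0.728 among KO tumors and 0.234 without the 2 farthest tumors, neither past the threshold.

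No paired analysis was possible because KO and WT libraries come from different animals and the labels give no shared replicate numbers. Depth limits Ifng, Ncr1, Gzmb, the T cell receptor V segments and, in the tumors poor in lymphocyte genes, ratios to single T or B cell genes.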

Other observations

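Several genes that are used as T or NK cell markers had counts in the lines, which had 0 counts of Cd3d, Cd3e and Cd3g. These genes were noticed after their values were seen. Trac, the constant region of the T cell receptor alpha chain, stood at 2.90 CPM in KO line 1 and 2.83 in the KO tumor of the same animal, and at 1.5 CPM in KO line 5 and 1.84 in its tumor. It stood at 2 CPM in WT line 1 and 2.88 in its tumor, at 4.15 CPM in WT line 2 and 14.6 in its tumor, and at 8.40 CPM in WT line 4 and 5.62 in its tumor. WT line 4 was also the line with the most Lck. In WT tumor 3, which came from the same animal, Cd3e stood at 0.318 CPM. Eomes, a transcription factor of NK and cytotoxic T cells, ran from 3.68 to 7.40 CPM in KO lines and from 0.374 to 8.85 CPM in WT lines, against 0.387 to 2.37 CPM in KO tumors and 1.17 to 6.67 CPM in WT tumors.

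Trbc1, the constant region 1 of the T cell receptor beta chain, was highest in WT tumor 4, at 27.2 CPM, above the 23.0 CPM of KO tumor 8 and the 7.02 CPM of WT tumor 2. WT tumor 4 had only 0.771 CPM of Cd3e and 10 counts of T cell receptor beta V segments, against 481 in KO tumor 8. In the lines Trbc1 did not exceed 0.374 CPM.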
